A study of Mus musculus with 2 samples.

Results

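In a mouse β cell line, 23308 genomic regions were called as peaks of tagged Rfx6. Of these, 584 (2.51%) held 300 or more sequencing reads and are called strong peaks here. They were selected on the deposited number of 3HA-Rfx6 reads in each peak, and peaks with their summit in the Rfx6 gene itself were left out. This removed 14 peaks, of which 3 held 300 or more reads, and left 22710 remaining peaks for comparison. The strong peaks lay at promoters, in exons and beside other peaks more often than the remaining peaks did. Tandemly repeated DNA was found within 500 bp of the summit in 10.96% of the strong peaks, but in 4.27% of the remaining peaks. Among peaks 1500 to 2500 bp wide, the intervals of the promoter, coding exon and neighbour differences included 0. Peaks with 200 to under 300 reads were similar to the strong peaks at promoters (29.3% in both). They were also similar in having a neighbour within 10 kb (59.0% against 59.1%). With the same number of peaks ranked by fold enrichment, the coding exon difference was -0.602 points, with an interval that included 0. The nearest genes of the strong peaks included Syk, Son, Prox1, Dnaic1, Itgam, Bdkrb2, Josd2 and the RFX genes Rfx2 and Rfx4.

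The experiment was a chromatin immunoprecipitation with sequencing (ChIP-seq) in Min6b1 cells, an established mouse β cell line that secretes insulin. Culture was in DMEM with 25 mM glucose and 15% serum. For the Rfx6 library the cells received 24 µg of a plasmid, pCMV-Tag2A-3HA-Rfx6, in which a viral (CMV) promoter drives Rfx6 with an HA peptide tag, and were collected 2 days after transfection. The precipitation used the anti-HA antibody 12CA5. The control was an HA precipitation from cells labelled only Min6b1, and the labels repeat the transfection text for it, so whether the control cells carried a plasmid is not settled by the labels. There was 1 library of each, so no value has a replicate error and no p-value is given. The peaks are those of an overexpressed, tagged protein, and its binding was not separated here from that of Rfx6 at its normal level. The 3HA-Rfx6 library retained 33949757 reads and the control 3567375, and the control was used by the authors to call the peaks.

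Rfx6 is a member of the RFX family of transcription factors, which bind DNA through a winged-helix domain. Their target, the X-box, is an imperfect inverted repeat of a short arm whose most typical letters are GTTGCC. Other RFX proteins are known to control genes of cilia and of antigen presentation, and Rfx6 is needed for islet cells to form and for mature β cells to secrete insulin.

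Of the 10 strong peaks with the most reads among those with an X-box within 25 bp of the summit, 8 are shown first, because they carry the letters the family is known to bind. Each is given with 20 bases on either side and is named by the nearest protein-coding gene. The X-box is in capitals, the strand is plus and the letters are those of the NCBIM37 (mm9) genome. An X-box was called where an arm, GTNACC or else GTNGCC, was followed after 0 to 3 bases by an opposed arm, on either strand. The opposed arm was AGCAAC, with T allowed for the C in the middle and G for the leading A.
Sykb, chr13:52840114-52840167: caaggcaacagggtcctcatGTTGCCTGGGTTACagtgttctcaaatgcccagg
Rfx2, chr17:56953906-56953960: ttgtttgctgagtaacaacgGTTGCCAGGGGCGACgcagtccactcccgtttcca
Rfx4, chr10:84229683-84229736: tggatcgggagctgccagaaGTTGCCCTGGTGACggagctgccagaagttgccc
Gm10711, chr2:179448237-179448289: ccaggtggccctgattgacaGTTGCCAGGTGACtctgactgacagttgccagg
Gm1043, chr5:37588846-37588898: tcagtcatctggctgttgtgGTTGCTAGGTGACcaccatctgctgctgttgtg
Git1, chr11:77314324-77314376: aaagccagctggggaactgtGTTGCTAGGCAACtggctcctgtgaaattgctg
Casz1, chr4:148234359-148234413: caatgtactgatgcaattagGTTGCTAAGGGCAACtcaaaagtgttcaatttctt
Rplp1, chr9:61750407-61750459: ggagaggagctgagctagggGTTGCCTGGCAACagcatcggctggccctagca

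The spacing between the arms was 1 base at Gm10711, Gm1043, Git1 and Rplp1, 2 bases at Sykb and Rfx4, and 3 bases at Rfx2 and Casz1. In the windows at Rfx4 and Gm10711 the arm recurred in the flank, as part of a repeated unit described further on. The peak at the promoter of Josd2 had the highest fold enrichment of the list outside Rfx6. It held 1 X-box in the 200 bases around its summit, with further arms on both sides.
Josd2, chr7:51723660-51723859: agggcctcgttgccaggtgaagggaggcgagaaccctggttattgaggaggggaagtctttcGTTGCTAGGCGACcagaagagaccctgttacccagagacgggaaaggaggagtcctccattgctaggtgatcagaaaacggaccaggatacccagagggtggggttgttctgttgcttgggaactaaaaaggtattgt

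Reads and enrichment describe the selection and were not tested. The strong peaks held 244119 reads, which is 10.8% of the reads in all peaks outside Rfx6. Their read numbers ran from 300 to 3489, with a median of 370.5 and quartiles of 332 and 440, so most lay close to the threshold. Fold enrichment, which relates the signal in a peak to the background the peak caller expected there, had a median of 31.1 in the strong peaks and 8.47 in the remaining peaks. The false discovery rate (FDR) given by the caller was higher in the strong peaks, with a median of 8.935% against 3.01%. It ran from 0 to 25.29% in the strong peaks and reached 10% in the remaining peaks. A caller score (-10 times the log10 p-value) of exactly 3100 was given to 76 strong peaks and 0 remaining peaks. Josd2 and Son had that score with an FDR of 25.29%, despite fold enrichments of 95.8 and 85.9. The peaks nearest to Fosb and Lrfn4, with higher scores of 3107.3 and 3233.06, had an FDR of 0. The FDR therefore did not order the strong peaks by enrichment. The strong peaks were also wider, with a median length of 2285 bp against 1188.5 bp. At the threshold, 7 peaks held exactly 300 reads, nearest to Papss2, Dnalc4, Ndrg1, Smad5, Qrfp, Egr1 and Chst8, with fold enrichments of 19.3 to 56.7. The 4 peaks with 1 read less, nearest to March4, Cs, Gpc1 and Trnp1, had fold enrichments of 16.4 to 47.5. The groups on either side of the threshold overlapped in enrichment.

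The order by reads differed from the order by enrichment at its top. The peak with the most reads (3489) lay on chromosome 17 in a pseudogene, AY036118, 360 kb from the nearest coding start, that of Pgk2. It had the lowest fold enrichment of the list outside Rfx6, 2.43. The next peak (1486 reads, fold 60.5) and another 7.79 kb from it (806 reads, fold 47.5) were intergenic on chromosome 13, 156 and 148 kb from the start of Sykb, now named Syk, which encodes a tyrosine kinase of immune receptor signalling. The peak at Son (1411 reads, fold 85.9) lay in a coding exon of that gene, which encodes a large protein of nuclear speckles needed for splicing. The peak nearest to Prox1 (1292 reads, fold 28.4) was intergenic, 131 kb upstream of this homeobox gene of early pancreas and liver.

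Dnaic1, which encodes an intermediate chain of the dynein that moves cilia, held a peak of 1229 reads in intron 1 (fold 67.0). Itgam, the αM integrin gene of myeloid cells, held one of 1193 reads in an intron near its end (fold 47.6). The peak nearest to Bdkrb2, the gene of a bradykinin receptor, held 1157 reads (fold 88.2). At Josd2, which encodes a deubiquitinase, the promoter peak held 972 reads and had the highest fold enrichment, 95.8. Each of these 4 peaks was above the median fold enrichment of the strong peaks.

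The other peaks among the 20 with the most reads were spread over all 5 kinds of position. They lay in coding exons of D6Ertd527e (1083 reads), Col8a1 (828 reads, in a collagen gene, although the start of 2610528E23Rik is nearer) and Lynx1 (698 reads, encoding a modulator of nicotinic receptors). An untranslated exon of Rnft2 held 932 reads. The promoters were those of Olig1 (912 reads), a transcription factor of the oligodendrocyte lineage, Tesc (797 reads), a calcium-binding protein gene, and Mast3 (695 reads), a kinase gene. Introns of 4930572J05Rik (887 reads) and of Slc38a9 (731 reads), a lysosomal amino acid transporter, held further peaks. The intergenic ones were nearest to Gpr141 (951 reads) and C130026L21Rik (939 reads).

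Ranked by fold enrichment instead, the first 10 strong peaks included those nearest to Josd2, Bdkrb2, Son, Hspbp1 (78.6), Odf3l2 (75.4), Pcgf5 (72.3), Mast3 (71.3), Rfx2 (70.4) and Fam183b (70.2). Of these, Josd2, Bdkrb2, Son and Mast3 were also among the 20 with the most reads. Hspbp1 encodes a partner of the Hsp70 chaperone and Pcgf5 a Polycomb subunit. The Rfx2 peak lay in intron 1 of the gene, 16.5 kb from its start, and its X-box ended 1 bp from the summit.

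**Figure D1:**
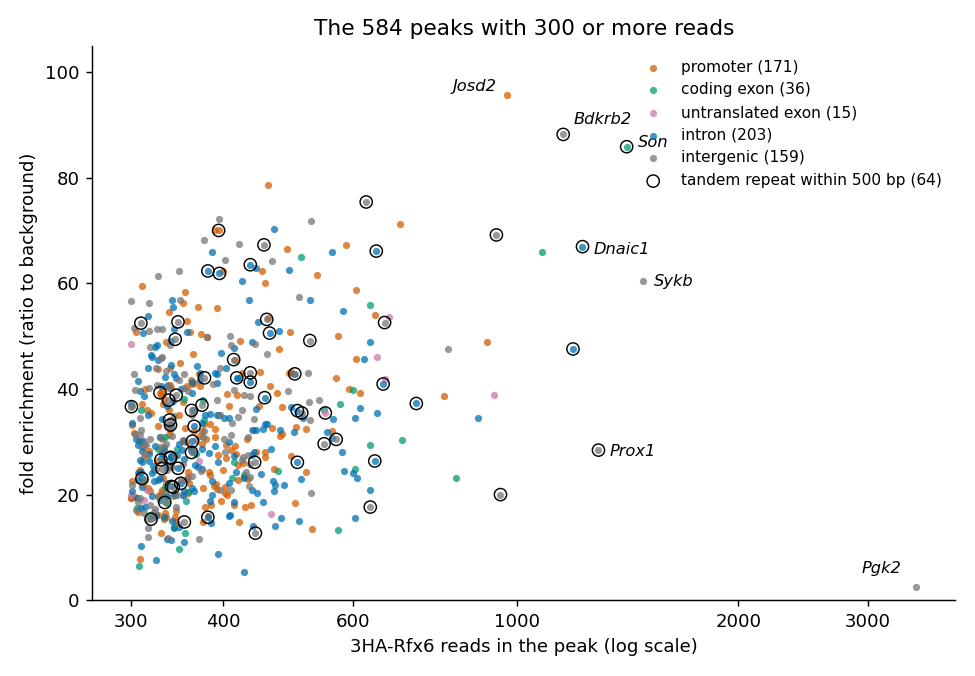
Reads of the 3HA-Rfx6 library (log scale) and fold enrichment (ratio to background) of the 584 strong peaks, 1 point a peak, coloured by the place of the summit. Rings mark the 64 peaks with a tandem repeat within 500 bp of the summit. Josd2 has the highest fold enrichment, 95.8, and the peak nearest to Pgk2 combines the most reads, 3489, with the lowest, 2.43.

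The place of the summits differed from that of the remaining peaks. Promoter peaks, those with a summit at most 1 kb from a coding transcript start, made up 29.3% of the strong peaks (171 of 584, 95% Wilson interval 25.7 to 33.1%) and 20.8% of the remaining peaks. The difference was 8.46 percentage points, with a 95% Newcombe interval of 4.87 to 12.3. Coding exons held 36 strong peaks (6.16% against 3.25%, a difference of 2.91 points, 1.21 to 5.17). With the same number of peaks chosen by fold enrichment instead of reads, the coding exon difference was -0.602 points (-1.68 to 1.08), and by reads per kb it was 0.627 points (-0.695 to 2.54). Untranslated exons held 15 (2.57% against 1.35%, 1.22 points, 0.203 to 2.85). Intergenic summits were less frequent, with 159 strong peaks (27.2% against 35.9%, a difference of -8.71 points, -12.2 to -4.91), and by the same rankings that difference was -1.51 and -2.21 points, with intervals that included 0. Introns held the largest number, 203 (34.8% against 38.6%), and the interval of that difference, -7.68 to 0.122 points, included 0. All intervals cover counting error only, and peaks of 1 library are not replicates.

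Just below the threshold the composition was similar. Of the 1272 peaks with 200 to under 300 reads, 29.3% were promoter peaks (difference -0.0431 points, -4.42 to 4.48). The shares of introns, intergenic sites and coding exons in that group also had intervals of the difference that included 0. Untranslated exons were the exception, at 1.18% against 2.57% (difference 1.39 points, 0.130 to 3.08). By reads, the promoter share was 17.2% at under 50 reads and 32.2% at 400 to under 600 reads. Among the 46 peaks with 600 or more reads it was 17.4% (8 peaks, 9.09 to 30.7%), and the coding exon share was then also 17.4%, against 4.52% at 400 to under 600 reads. The 8 coding exon peaks of this group were those in Son, D6Ertd527e, Col8a1, Lynx1, Gp5, Snapc4, Lrfn4 and Col4a2.

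**Figure D2:**
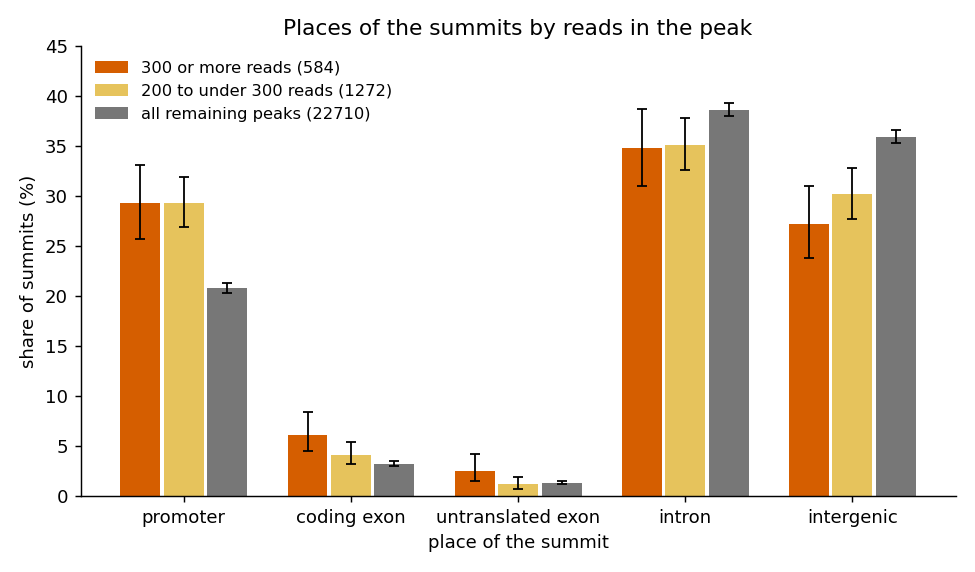
Share of summits (%) at each kind of place for the strong peaks, the peaks with 200 to under 300 reads and all remaining peaks, with bars from 0 and 95% Wilson intervals. The strong peaks and the group just below them have the same promoter share, 29.3%, and both lie above the 20.8% of the remaining peaks.

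Peak width moved with these differences. Among peaks 1500 to 2500 bp wide (298 strong and 4008 remaining), the promoter difference was 0.633 points (-4.55 to 6.27), the intergenic difference -0.815 points and the coding exon difference 1.34 points, and each interval included 0. GC content moved with them too. The 200 bp around the summit had a median GC of 57.5% in the strong peaks and 54.0% in the remaining peaks. At 60% GC or more, the promoter share was lower in the strong peaks, 57.7% of 208 against 65.4% of 4922 (difference -7.73 points, -14.6 to -1.08). From 50 to under 60% GC it was 13.7% against 10.3% (3.39 points, 0.0525 to 7.56). The part of width and GC in the result was not tested further.

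Within the promoter class, 118 of 171 summits (69.0%) lay at or downstream of the nearest start, against 65.6% in the remaining peaks (difference 3.39 points, -4.02 to 9.98). Promoter summits had a median GC of 64.5% and the other classes of the strong peaks between 55.5 and 61.8%. Of the intronic summits, 71 of 203 were in intron 1 (34.98%, against 33.2%). The median distance from the summit to the nearest coding start was 7.44 kb (quartiles 0.636 and 28.5 kb), against 13.9 kb in the remaining peaks, and 89 strong peaks (15.2%, against 22.5%) lay over 50 kb from any such start.

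Strong peaks had close neighbours. Another summit of the list lay within 10 kb of 345 of them (59.1%), against 46.3% of the remaining peaks, a difference of 12.8 points (8.74 to 16.8). In the group of 200 to under 300 reads the share was 59.0% (difference 0.113 points, -4.73 to 4.88), and among peaks 1500 to 2500 bp wide the difference was 3.03 points (-2.85 to 8.74). Neighbours that were themselves strong were fewer, 34 peaks (5.82%) within 10 kb and 109 (18.7%) within 50 kb. Joining strong summits at gaps of at most 50 kb gave 475 single peaks, 35 pairs and 11 longer chains, with 5 peaks at most. One chain of 5 spanned 102 kb of chromosome 10 at Mier2, Theg, C2cd4c and Odf3l2, with 371 to 647 reads a peak. The other spanned 55.6 kb of chromosome 1 at E030010N08Rik (now Crocc2, a ciliary rootlet gene) and Sned1, with 348 to 550 reads.

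The strong peaks were spread over all chromosomes of the list. They were 2.51% of peaks in all, and between 2.74 and 4.48% (Wilson interval) on chromosome 4, 2.66 and 4.63% on chromosome 8, and 2.56 and 5.14% on chromosome 16. The share was lowest among autosomes on chromosome 6, 1.31% (0.798 to 2.16%). The X chromosome had 1 strong peak among 174, in an intron of Aff2 with 659 reads.

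The X-box was more frequent at the strong summits. A strict X-box stood in the 200 bases around 54 summits (9.25%, 7.16 to 11.9%), against 6.35% of the remaining peaks (difference 2.89 points, 0.777 to 5.53). In control windows placed 1 kb further to the right, 0.514% and 0.247% held one. Most strong peaks therefore held no strict X-box at the summit. A relaxed X-box, with more letters allowed in both arms, was found at 48.5% of the strong and 45.8% of the remaining summits, and at 21.9 and 22.9% of the windows to the right (difference between the groups of peaks 2.64 points, -1.44 to 6.74). In peaks 1500 to 2500 bp wide the strict difference was larger, 6.90 points. Against the peaks with 200 to under 300 reads it was 1.31 points, and at a threshold of 400 reads 2.11 points (-0.901 to 6.53), both with an interval that included 0. With the same number of peaks ranked by fold enrichment, the strict difference was 9.22 points (6.50 to 12.4). Ranked by reads per kb it was 6.05 points (3.61 to 8.99), and by score 3.77 points (1.56 to 6.50).

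The 54 strong peaks with an X-box were narrower and more enriched than the other 530, as a description of the selected peaks. Their median length was 1785 bp against 2335.5 bp, and their median fold enrichment was 41.5 against 30.4, at similar reads (375 and 369). By place, an X-box stood at 14 of 171 promoter, 19 of 203 intronic and 19 of 159 intergenic summits. Intergenic summits showed a difference from the remaining peaks, 11.9% against 7.38% (4.57 points, 0.367 to 10.6). No coding exon summit held one (0 of 36), a number that allows a share of up to 9.64%, and 2.57% of the remaining coding exon summits did.

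The X-boxes of the strong peaks were also compared by their geometry. Of the 68 X-boxes found, 36 had 1 base between the arms, 29 had 2 bases (42.6%, against 38.0%), 2 had 3 bases and 1 had none. The difference for 2 bases was 4.62 points (-6.69 to 16.7). The gap from X-box to summit had a median of 18.5 bp, against 16 bp. The arm GTTGCC by itself was found on either strand at 192 strong summits (32.9%), against 26.6% (difference 6.27 points, 2.54 to 10.2), and in 9.25 and 6.32% of the windows to the right. Among the peaks with 200 to under 300 reads the share was 32.8% (difference 0.0937 points, -4.43 to 4.75). Its matches gathered at the summit, with 45 matches in the 20 bp to the left and 52 in the 20 bp to the right, against 17 to 25 in each of the other 20 bp steps.

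**Figure D3:**
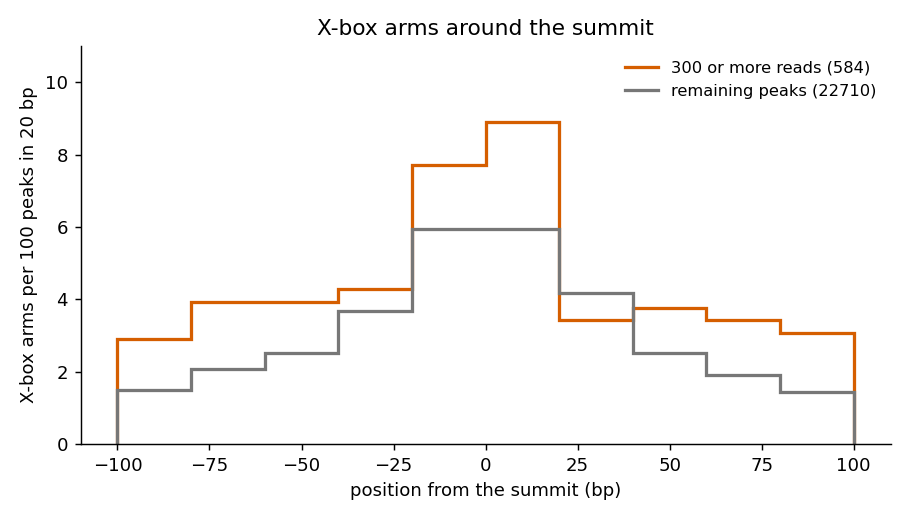
Matches of the X-box arm per 100 peaks in steps of 20 bp from 100 bp left to 100 bp right of the summit, both strands together, for the strong and the remaining peaks. Both groups peak within 20 bp of the summit, at 7.71 and 8.90 per 100 strong peaks and at 5.93 and 5.95 per 100 remaining peaks.

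Of the other short motifs searched on both strands of the same windows, CCAAT (12.5% against 17.0%, difference -4.51 points, -6.99 to -1.54) and TAATTA, a homeodomain core (0.685% against 2.04%, -1.36 points, -1.82 to -0.281), were rarer at strong summits. GGGCGG, the GC box, was more frequent (14.6% against 11.04%, 3.51 points, 0.850 to 6.63), and was also more frequent in the windows to the right (8.56% against 5.76%). Against the peaks with 200 to under 300 reads, the intervals for these 3 motifs included 0. For the E-boxes CAGATG and also CAGCTG, the forkhead core TGTTTAC, the AP-1 core TGANTCA, the cAMP element TGACGTCA, the ETS core CCGGAAG and the Maf element TGCTGAC the interval of the difference from the remaining peaks included 0.

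Tandem repeats were more frequent at the strong peaks. A repeat was called where, in the 1000 bases around the summit, a stretch of 100 bases matched the sequence a fixed number of bases away at 70% of positions or more, and the smallest such shift was taken as the length of the unit. This measure was defined after repeats were seen in the printed sequences. A peak or summit is said below to be on a repeat when one was called, although the repeat could lie up to 500 bases from the summit. Units of 7 to 200 bases were found at 64 strong peaks (10.96%, 8.68 to 13.8%) and at 970 remaining peaks (4.27%, 4.02 to 4.54%), a difference of 6.69 points (4.39 to 9.49). In control windows placed 3000 bases to the right, the shares were 2.91 and 2.88%. Simple repeats with units under 7 bases were rarer at the strong peaks, 4.28% against 7.40%.

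The share of peaks on a repeat was higher in groups with more reads. It was 3.56% at under 50 reads, 7.47% at 200 to under 300 reads, 10.7% at 400 to under 600 reads and 30.4% at 600 or more reads (14 of 46, 19.1 to 44.8%). Of the 10 peaks with the most reads, 6 lay on a repeat, those at Son, Prox1, Dnaic1, Itgam, Bdkrb2 and Gpr141. Against the peaks with 200 to under 300 reads the difference was 3.49 points (0.716 to 6.58), and among peaks 1500 to 2500 bp wide it was 8.26 points (4.87 to 12.6). Intergenic summits had the largest share, 35 of 159 (22.0%, against 5.17%), followed by introns with 25 of 203 (12.3%, against 5.23%). Only 2 of 171 promoter summits lay on a repeat (1.17%, against 1.23%).

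**Figure D4:**
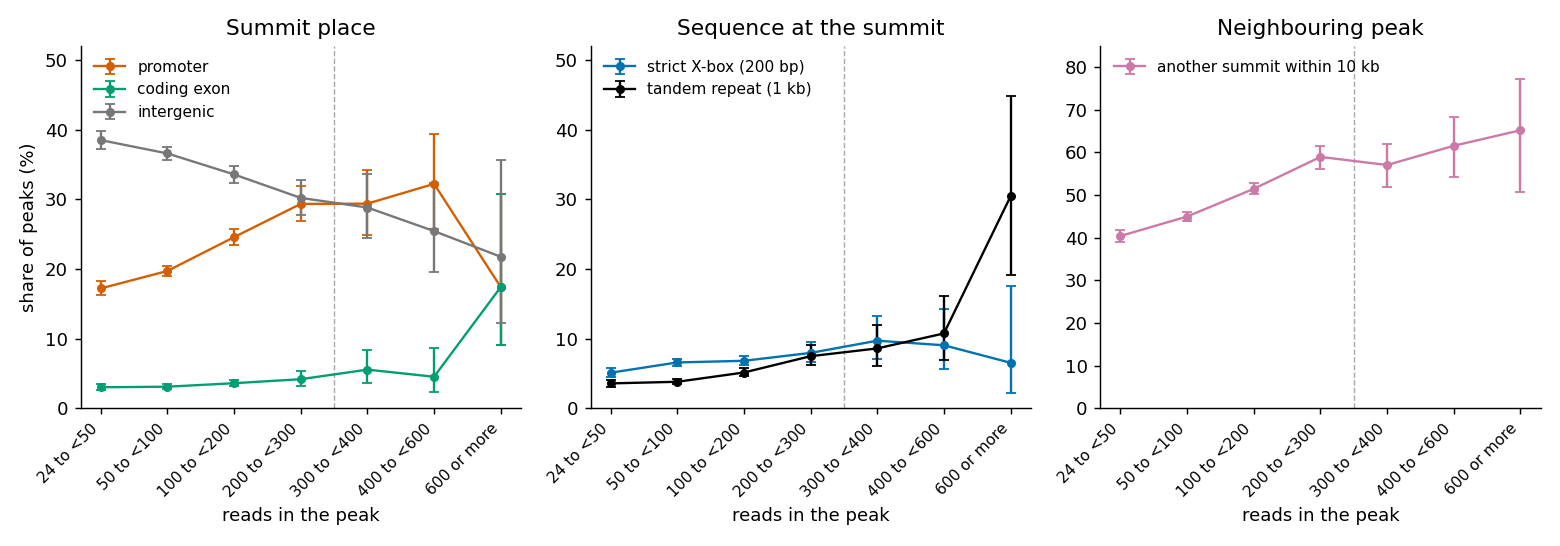
Share of peaks (%) by the number of reads in the peak, with 95% Wilson intervals and a dashed line at 300 reads. The promoter share is 32.2% at 400 to under 600 reads and 17.4% in the last group of 46 peaks, where the coding exon share is also 17.4% and the tandem repeat share reaches 30.4%.

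The unit was most often 24 to 27 bases long, in 35 of the 64 strong peaks on a repeat and in 175 of the 970 remaining ones. This band was singled out after the lengths were seen and is given as a description. It was 5.99% of strong peaks and 0.771% of remaining peaks. In the windows 3000 bases to the right it was 0.685% (4 peaks) and 0.203%, a difference of 0.482 points (0.0587 to 1.55). The 5 strong peaks with the most reads in this band are shown with 120 bases around the summit, on the plus strand of NCBIM37 (mm9). Capitals mark each copy of the 10-base word that occurs most often in the stretch.
Prox1, chr1:192125280-192125399: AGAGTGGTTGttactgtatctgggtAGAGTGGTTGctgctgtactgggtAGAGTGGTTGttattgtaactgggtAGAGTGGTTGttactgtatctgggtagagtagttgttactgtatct
Dnaic1, chr4:41540599-41540718: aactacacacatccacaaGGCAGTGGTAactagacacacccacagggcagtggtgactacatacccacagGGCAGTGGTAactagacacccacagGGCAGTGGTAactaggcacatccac
Itgam, chr7:135262458-135262577: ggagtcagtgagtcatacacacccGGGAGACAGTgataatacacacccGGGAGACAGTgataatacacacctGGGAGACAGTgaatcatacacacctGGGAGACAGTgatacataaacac
Slc38a9, chr13:113501611-113501730: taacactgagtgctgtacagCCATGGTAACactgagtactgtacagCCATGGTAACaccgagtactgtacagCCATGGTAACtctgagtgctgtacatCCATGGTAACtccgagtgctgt
Matn1, chr4:130652222-130652341: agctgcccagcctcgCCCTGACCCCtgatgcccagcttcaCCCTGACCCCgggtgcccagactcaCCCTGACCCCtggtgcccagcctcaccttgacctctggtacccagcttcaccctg

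The repeated units differed between loci, and in some an X-box arm recurred in several copies of the unit. At Slc38a9 the marked word ends in GGTAAC, and 28 opposed arms (defined above, either strand) stood in the 1000 bases around the summit. Prox1 had 36 and Dnaic1 13, whereas Itgam had 1 and Matn1 2. The peak at Son, whose coding exon repeats a unit of 33 bases, had 15 opposed arms. The 121 bases around its summit, printed without capitals, show their spacing.
Son, chr16:91656251-91656371: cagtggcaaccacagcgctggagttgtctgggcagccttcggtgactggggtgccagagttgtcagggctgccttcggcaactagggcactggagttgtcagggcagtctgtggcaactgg

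At least 5 such arms in the 1000 bases were counted at 22 of the 64 strong peaks on a repeat (34.4%) and at 66 of the other 520 strong peaks (12.7%). In the remaining peaks the shares were 20.8% on a repeat and 7.49% elsewhere. Arm counts at the strong peaks on a repeat were spread from 0 to 37, with 1 at Itgam, 3 at Bdkrb2, 5 at Gpr141 and 14 at Rfx4. The median was 2 arms in both sets of strong peaks. A strict X-box stood at 4 of the 64 summits (6.25%) and at 50 of the 520 (9.62%).

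**Figure D5:**
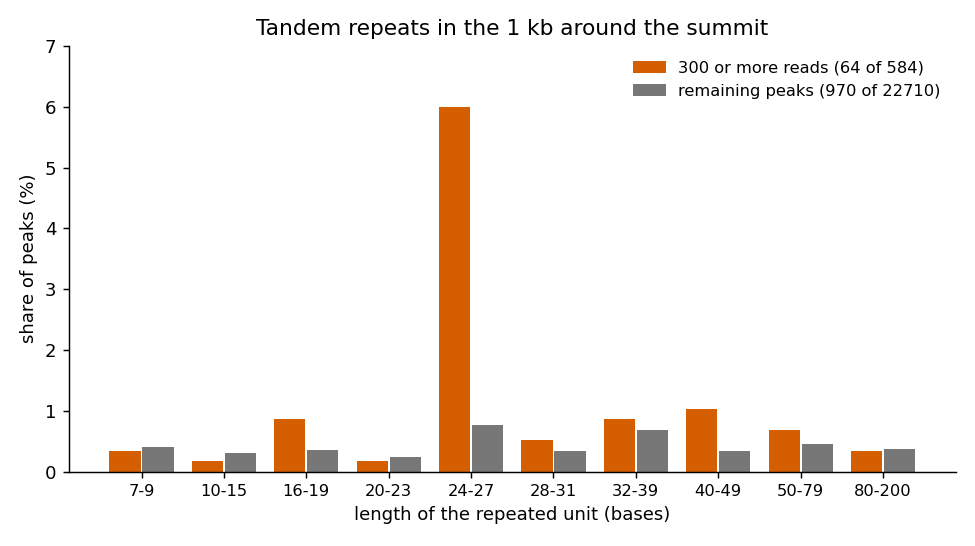
Share of peaks (%) with a tandem repeat in the 1000 bases around the summit, by the length of the unit in bases, for the strong and the remaining peaks. The bars start at 0, and the tallest is that of 24 to 27 bases at 5.99% of the strong peaks, against 0.771% of the remaining peaks.

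Repeats bear on how reads are placed. Windows whose 31-base words occurred more than once in the assembled genome were found at 20 strong peaks (3.42%, against 1.51%), of which 19 were on a tandem repeat, and the most extreme, in an intron of Ulk4, had a median of 47 copies a word. Without such windows, 45 of 564 strong peaks (7.98%) and 3.43% of remaining peaks lay on a repeat, a difference of 4.55 points (2.57 to 7.09). The fold enrichment of the strong peaks on a repeat had a median of 36.8 (12.7 to 88.2), against 30.6 for the others. How reads with several matches were placed is not given in the sources used here, and its part in the result was not tested. The count of words covers only copies present in the assembly. Repeats collapsed there could not be checked without the reads. By this count the peak in AY036118, with the most reads, had a median of 1 copy a word.

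The 584 strong peaks had 527 different nearest protein-coding genes, which is 2.37% of the 22219 such genes. For 482 genes it was 1 peak, for 36 genes 2, for 6 genes 3 and for 3 genes 4. Col4a2, which encodes a chain of basement membrane collagen IV, had 4 strong peaks, of 354, 375, 547 and 600 reads with fold enrichments of 36.0 to 39.7, and each of the 4 summits was in a coding exon. 4933407C03Rik, now named Cmip, had 4 in its introns, with 316 to 525 reads. Wscd2 had 4 with 336 to 443 reads, at its promoters, in an intron and upstream.

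The genes with 3 strong peaks were Plch2 and Runx3, Rbfox3 and Odz4, C130026L21Rik and E030010N08Rik. Plch2, a phospholipase C gene, had 343, 363 and 633 reads, all inside the gene. Runx3, a transcription factor gene, had 313, 469 and 479 reads. Rbfox3, which encodes the neuronal splicing factor NeuN, had 435, 470 and 600 reads in introns. Odz4, now Tenm4, encodes a teneurin of cell adhesion, and had 312, 320 and 561 reads. At C130026L21Rik the 3 peaks were all intergenic, 93.0 to 321 kb from the start, with 323, 454 and 939 reads.

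Of 538 genes in 17 lists of β cell and general pathways, 34 (6.32%) were nearest to a strong peak, beside 2.37% of all protein-coding genes. A closer background is the set of genes that are nearest to any peak. There the counts were 34 of 368 listed genes (9.24%) against 5.35% of all 9858 such genes. The lists were chosen with earlier results known, so the counts are descriptions.

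Among regulators of the islet, Prox1 and Myt1 (354 reads, 4.14 kb upstream), a zinc finger factor of endocrine progenitors, were nearest to a strong peak, which is 2 of 32. Of the RFX family and its partners, Rfx2 (469 reads) and Rfx4 (455 reads) were, 2 of 10, each with an intron 1 peak and an X-box within 9 bp of the summit. The cilium list had 3 of 41. Besides Dnaic1 these were Ift20 (355 reads, 71 bp from the start, fold 58.4) and Ift57 (310 reads, 16 bp from the start, fold 59.5, with an X-box at the summit), which encode carriers of intraflagellar transport. Both were promoter peaks of higher enrichment than the median strong peak. Among genes nearest to any peak, 8.33% of the islet regulators and 10.7% of the cilium list were nearest to a strong peak. For the RFX list the share was 25% (2 of 8 genes), beside 5.35% of all such genes.

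Genes of hormone storage and release had 1 or 2 members a list, beside the 2.37% of all protein-coding genes. Among hormones, granins and processing enzymes there were 2 of 22 (9.09%), Chga, encoding chromogranin A (340 reads, in an intron of the neighbouring gene Itpk1), and Ptprn2, a granule membrane protein gene (321 reads, intron 2). Exocytosis had 2 of 36 (5.56%), Doc2b, a calcium sensor gene (354 reads), and Snap25, a SNARE gene (335 reads), both intronic. Ion channels had 2 of 38 (5.26%), Kcnma1, a calcium-activated potassium channel gene (387 reads, upstream), and Cacnb2, a calcium channel β subunit gene (304 reads, intron 1). Of incretin, adrenergic and cAMP signalling, Sstr5, a somatostatin receptor gene (340 reads), was the 1 of 37 (2.70%). In these lists no gene exceeded 400 reads. Among genes nearest to any peak, the shares were 13.3% for hormones, granins and processing enzymes and 9.52% for exocytosis. They were 6.90% for ion channels and 3.03% for incretin, adrenergic and cAMP signalling, beside 5.35% of all such genes.

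Signalling and metabolic genes were counted in the same way, beside 2.37% of all protein-coding genes and 5.35% of those nearest to any peak. Among listed genes nearest to any peak, the shares were 9.52% for insulin and growth factor signalling and 6.90% for metabolism. They were 8.70% for TGF-β and BMP signalling and 10.5% for the Notch pathway. For the clock the share was 11.8%, and for the disallowed genes 14.3% (1 of 7). Insulin and growth factor signalling had 2 of 36, Akt1 (312 reads, promoter) and Rptor (326 reads, intron 1), which encode kinase pathway components. Lipid and glucose metabolism had 2 of 39, Pfkfb3, a regulator of glycolysis (502 reads, promoter), and Mlxipl, encoding the glucose-responsive factor ChREBP (326 reads, intron 1). TGF-β and BMP signalling had 2 of 33, Inhbb (304 reads) and Smad5 (300 reads), both intergenic. The Notch pathway had 2 of 30, among them its ligand gene Dll1 with a promoter peak (342 reads). The circadian clock had 2 of 22, Cry2 with 2 peaks (458 reads in intron 2 and 381 at the promoter) and Dbp (374 reads, with an X-box). Of the disallowed genes, which are normally kept silent in β cells, only a short list was counted, the 11 that both earlier surveys named, and 1 was nearest to a strong peak, Oat, whose peak of 340 reads lay 61.8 kb away in Fgfr2.

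By number of genes, the 2 lists with the most were immediate-early and stress genes, 4 of 37 (10.8%), and collagens and basement membrane, 4 of 38 (10.5%). By share, the RFX family and partners came first, with 2 of only 10 genes (20%). The former were Gadd45g, a growth arrest gene, with 2 peaks (646 and 396 reads), Fosb (402 reads, upstream, with an X-box 11 bp from the summit), Ier5 (319 reads, 147 kb away) and Egr1 (300 reads, promoter). The latter were Col4a2, Hspg2, the perlecan gene (607 reads, intronic), Col1a1 (427 reads, intronic, with a fold enrichment of only 5.39) and Col5a1 (390 reads, intronic). Cell cycle regulators had 1 of 41, Cdkn1c, whose nearest strong peak (620 reads) lay 44.3 kb away in an intron of Kcnq1. No gene of the 36 in the list of ER stress and protein folding was nearest to a strong peak, beside 2.37% of all protein-coding genes. Of the 36, 14 were nearest to some peak. In so short a list a count of 0 is near the background share. Among genes nearest to any peak, the shares were 12.5% for immediate-early and stress genes and 14.8% for collagens and basement membrane. For cell cycle regulators the share was 4.55%, beside 5.35% of all such genes.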

How the data were processed

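The authors processed the reads of both libraries with CASAVA 1.8.2 and Bowtie and called peaks with MACS 1.4.2 on the mm9 build, per the labels, and the role and version of Bowtie are not given in the sources used here. For each peak of the 3HA-Rfx6 library they deposited a count of reads (1 at most per position), a ratio called fold enrichment over the background from the control and the surroundings, a score equal to -10 times the log10 p-value, and the FDR as a percent. The p-value cutoff of the caller was 1e-05 and the fragment size 234 bp. The control's own values were not analysed here.

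From these, summits (start plus summit offset minus 1) were placed on NCBIM37 and GENCODE M1 in the order promoter (within 1 kb of the start of a transcript typed protein-coding), coding exon, untranslated exon, intron, intergenic. The gene with the nearest such start was the nearest gene, and 514 of 527 nearest gene names were matched to a RefSeq symbol or synonym of GRCm38.p6. The members and the 17 gene lists were chosen with earlier results of these data known. Shares have 95% Wilson intervals and differences 95% Newcombe intervals. With 1 library per condition there was no test between samples. Motif, repeat and placement searches were tested on simulated data. Named genes are those nearest to the 20 peaks with the most reads, the 10 with the highest fold enrichment, 3 or more strong peaks, or the threshold, the list genes nearest to a strong peak, and the 10 peaks with the most reads and an X-box within 25 bp. Some genes and sequences that these rules name are not reported here. Genes of the chains, of the coding exon peaks with 600 or more reads and of the repeats were named after their values were seen. Alternatives were read thresholds of 200 and 400, rankings by fold enrichment, score or reads per kb, other promoter sizes, starts, windows, X-box definitions and neighbour distances, and subsets by width, GC and repeated words. The software was Python 3.11.15, statsmodels 0.14.6, pandas 2.3.3, numpy 2.4.6, pysam 0.24.0, numba 0.67.0 and matplotlib 3.10.9.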

Additional observations from a re-analysis of the deposited data

How the results depend on the processing

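Of 94 alternative values, 68 kept their direction and their side of 0, or stayed within the stated range of the value. The differences below are in percentage points, strong minus remaining peaks. Against the peaks with 200 to under 300 reads, the promoter difference turned to -0.0431, and intervals came to include 0 for coding exons (2.00), intergenic sites (-2.96), neighbours (0.113) and the X-box (1.31). With the same number of peaks ranked by fold enrichment, the coding exon difference turned to -0.602, the intergenic one was -1.51, the intronic one -4.93 and the median distance 10307 bp. Ranked by reads per kb these were 0.627, -2.21, -4.76 and 10883 bp, with 0 in the intervals of the coding exon and intergenic differences of both rankings, and ranked by score the intronic difference was -6.16. Among peaks 1500 to 2500 bp wide, an alternative chosen after seeing the data, the differences were 0.633 for promoters, 1.34 for coding exons, -0.815 for intergenic sites and 3.03 for neighbours, all with intervals that included 0. A threshold of 200 reads gave 1856 peaks, 97 list genes and an intronic difference of -3.83 (like the other 3 intronic values here, with an interval below 0), and a threshold of 400 gave 223 peaks, 12 list genes and an X-box difference of 2.11 with an interval that included 0. The relaxed X-box gave 2.64, also with 0 in its interval, and starts of all transcripts gave a median distance of 3885 bp. The tandem repeat difference, added after seeing the data, kept its direction with intervals above 0 under all 10 of its alternatives, also chosen then. Comparing with 200 to under 300 reads could not change the medians of the strong peaks. No paired analysis was possible because each condition had a single library and the labels give no replicate number. The cause of these changes was not tested. Peaks of 24 reads or more at this depth were listed. The control was shallower than the 3HA-Rfx6 library and kept a smaller part of its reads after filtering. The effect of this on the fold enrichments was not tested.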
